A study of Homo sapiens with 18 samples.

Results

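The 9 genes DDR2, SYTL5, MXRA8, MID1, MLLT11, PTPRM, MARVELD2, ESRP2 and CTSZ were followed across UBR7 knockout lines of HEK293T, a widely used cell line derived from human embryonic kidney. UBR7 is a UBR box protein that the series title names as a chaperone of histone H3. The 9 genes were found by symbol among the 14177 genes of the deposited RNA table. All 9 were among the 13697 genes tested, those above 1 CPM (a gene's reads scaled to the library total) in at least 3 libraries. They had been picked because their RNA changed strongly in 1 knockout line and the other way in the other line, so their RNA values are given as a description, with no test. RNA came from UBR7 knockout line KO1 (2 libraries), line KO2 (1 library) and parental HEK293T cells (3 libraries). ATAC-seq, which maps chromatin open to a transposase, came from UBR7KO cells and parental cells (2 libraries each). ChIP-seq for GFP came from 1 library of HEK293T cells in which the endogenous UBR7 was tagged with GFP. The labels name no treatment. The guides, and whether each line is 1 clone, are not given in the sources used here.

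Date codes in the labels pair KO1 1 with parental 1 and KO1 2 with parental 2. KO2 1 and parental 3 carry no date and were set side by side as the undated pair, a pairing that the labels do not state. Both UBR7KO ATAC libraries carry the sample code of KO2 1 in their labels, which do not name their line. Nothing states that libraries of 1 group came from separate cultures, so their spread may be technical. UBR7 RNA was 27.0 CPM in KO1 1 and 26.3 CPM in KO1 2, below the 55.0 and 62.2 CPM of their parental partners. The library labelled KO2 held 64.5 CPM, against 62.2 CPM in parental 3, so its UBR7 RNA was not reduced. Its label as a knockout cannot be checked from the RNA level alone. Every direction given below for KO2 is that of the library labelled KO2. Library totals ran from 22153291 to 29811908 reads. Of the markers of other cell types, 0 of 7 keratinocyte markers and 1 of 6 blood markers were in the table. Of 9 fibroblast markers, 4 were in it, and COL1A2, DCN, PDGFRB, THY1 and POSTN were not. Their summed level was 14.4 to 16.4 CPM in KO1, 7.95 CPM in the library labelled KO2 and 16.2 to 22.8 CPM in parental libraries.

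The 9 genes do not belong to 1 pathway. DDR2 is a receptor tyrosine kinase that binds fibrillar collagens, and MXRA8 is an immunoglobulin-like surface protein that arthritogenic alphaviruses use as an entry receptor. PTPRM is a receptor tyrosine phosphatase that makes homophilic cell contacts, and MARVELD2 (tricellulin) seals tight junctions where the corners of epithelial cells meet. SYTL5 is a synaptotagmin-like protein that binds Rab27 on vesicles. MID1 is a microtubule-bound ubiquitin ligase of the TRIM family that acts on the phosphatase PP2A through the alpha4 protein. MLLT11 was found as a fusion partner of KMT2A in leukaemia, ESRP2 directs epithelial patterns of splicing, and CTSZ is a lysosomal carboxypeptidase of the cathepsin family.

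Promoter sequence from RefSeq (build GRCh38.p14, 250 bases before to 50 after a gene start) was found for 8 of the 9 genes, as 17 entries. Shown are starts of 3 genes where at least 1 ATAC library held a peak over a RefSeq start (MARVELD2, PTPRM and MLLT11) and of 2 genes with no peak near the start (CTSZ and SYTL5). In that order they lie at chr5:69414866-69415165 (plus strand), chr18:7567066-7567365 (plus), chr1:151060147-151060446 (plus), chr20:59007205-59007504 (minus) and chrX:38006303-38006602 (plus). They are printed 5′ to 3′. Peak positions are of the GRCh37 type and none was converted, so a printed start need not be the one under a peak. Capitals mark, on either strand, the GC box GGGCGG, the CCAAT box and the E-box CACCTG, and no matches overlapped in these 5 sequences, the last of which holds none.
MARVELD2: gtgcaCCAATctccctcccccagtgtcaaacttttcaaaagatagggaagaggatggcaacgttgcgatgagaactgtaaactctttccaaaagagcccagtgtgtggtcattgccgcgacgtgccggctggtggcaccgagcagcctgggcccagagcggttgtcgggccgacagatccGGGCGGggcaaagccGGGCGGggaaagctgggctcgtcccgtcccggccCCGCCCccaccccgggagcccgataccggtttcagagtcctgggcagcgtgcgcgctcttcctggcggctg
PTPRM: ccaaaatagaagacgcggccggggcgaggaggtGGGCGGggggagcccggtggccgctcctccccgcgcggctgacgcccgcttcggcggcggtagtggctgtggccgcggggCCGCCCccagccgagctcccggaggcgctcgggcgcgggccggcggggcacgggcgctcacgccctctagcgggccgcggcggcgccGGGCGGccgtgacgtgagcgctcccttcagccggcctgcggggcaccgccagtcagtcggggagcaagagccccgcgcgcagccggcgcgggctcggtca
MLLT11: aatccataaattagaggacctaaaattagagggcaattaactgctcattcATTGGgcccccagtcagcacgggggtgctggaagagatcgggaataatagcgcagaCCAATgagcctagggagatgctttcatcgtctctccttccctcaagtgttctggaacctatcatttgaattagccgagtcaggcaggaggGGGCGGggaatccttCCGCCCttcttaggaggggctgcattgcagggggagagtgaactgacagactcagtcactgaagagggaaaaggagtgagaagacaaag
CTSZ: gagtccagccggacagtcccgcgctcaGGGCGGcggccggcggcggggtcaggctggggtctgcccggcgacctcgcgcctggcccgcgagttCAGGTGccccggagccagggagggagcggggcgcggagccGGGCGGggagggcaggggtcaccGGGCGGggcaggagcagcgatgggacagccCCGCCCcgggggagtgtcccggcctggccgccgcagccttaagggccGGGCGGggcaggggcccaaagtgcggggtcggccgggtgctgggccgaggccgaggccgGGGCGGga
SYTL5: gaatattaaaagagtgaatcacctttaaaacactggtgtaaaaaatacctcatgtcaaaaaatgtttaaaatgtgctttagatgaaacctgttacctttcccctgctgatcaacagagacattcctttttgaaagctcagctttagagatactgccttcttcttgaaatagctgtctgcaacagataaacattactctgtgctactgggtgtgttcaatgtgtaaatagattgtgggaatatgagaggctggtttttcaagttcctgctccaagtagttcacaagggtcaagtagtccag
These starts differed widely in base composition. PTPRM held 50 CpG dinucleotides, CTSZ 37, MARVELD2 25, MLLT11 7 and SYTL5 0, against a median of 14 over 35116 promoters of the same length. GGGCGG on either strand occurred 6 times in CTSZ, 3 times each in PTPRM and MARVELD2, 2 times in MLLT11 and 0 times in SYTL5. It stands in 45% of all promoters and in 6 of the 17 entries of these genes. CCAAT on either strand stands in 34.6% of all promoters and in 5 of the 17 entries, MARVELD2 and MLLT11 among them. CACCTG on either strand stands in 20.6% of all promoters and in 1 of the 17 entries, that of CTSZ. Of the other motifs searched on both strands, TATAAA stands in 11.5% of all promoters and in 3 of the 17 entries, and CACGTG in 7.26% and in 0. The entries of these genes had a median of 8 CpG dinucleotides and a median GC content of 51.0%, against 14 and 58.7% over all promoters.

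DDR2, SYTL5, MXRA8, MID1 and MLLT11 were higher in both KO1 libraries than in their date partners, and PTPRM, MARVELD2, ESRP2 and CTSZ were lower. On the log2(CPM + 1) scale, 4 of the 9 genes were at least 2-fold higher in both KO1 pairs, where 0.0803% of tested genes were, and 4 at least 2-fold lower, where 0.175% were. In the undated pair all 9 had the opposite sign (47.2% of tested genes were higher there and 52.8% lower), and 7 of 9 changed at least 2-fold either way (2.19% of tested genes), with 5 at least 2-fold lower in KO2 (1.27% of tested genes) and 2 at least 2-fold higher (0.92%). By at least 2-fold one way in both KO1 pairs and the other way in KO2, 6 of the 9 qualified, among 10 genes in all (0.073%), and 0 of the 9 went the same way by at least 2-fold in all 3 pairs (0.0438%). KO1 and its date partners did not overlap for any of the 9, as for 23.5% of tested genes. The genes were chosen on these contrasts, so nothing is read from their counts. MLLT11 reached 2-fold in KO2 by a narrow margin, with a log2 change of −0.99 under RLE scaling. Against the mean of the 3 parental libraries MLLT11 changed by −0.44 and ESRP2 by 0.80, both under 2-fold. The median change over all tested genes was 0.03 in the KO1 pairs and −0.02 in the undated pair. In these bulk libraries, fewer cells that express a gene and less RNA per cell cannot be told apart.

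**Figure D1:**
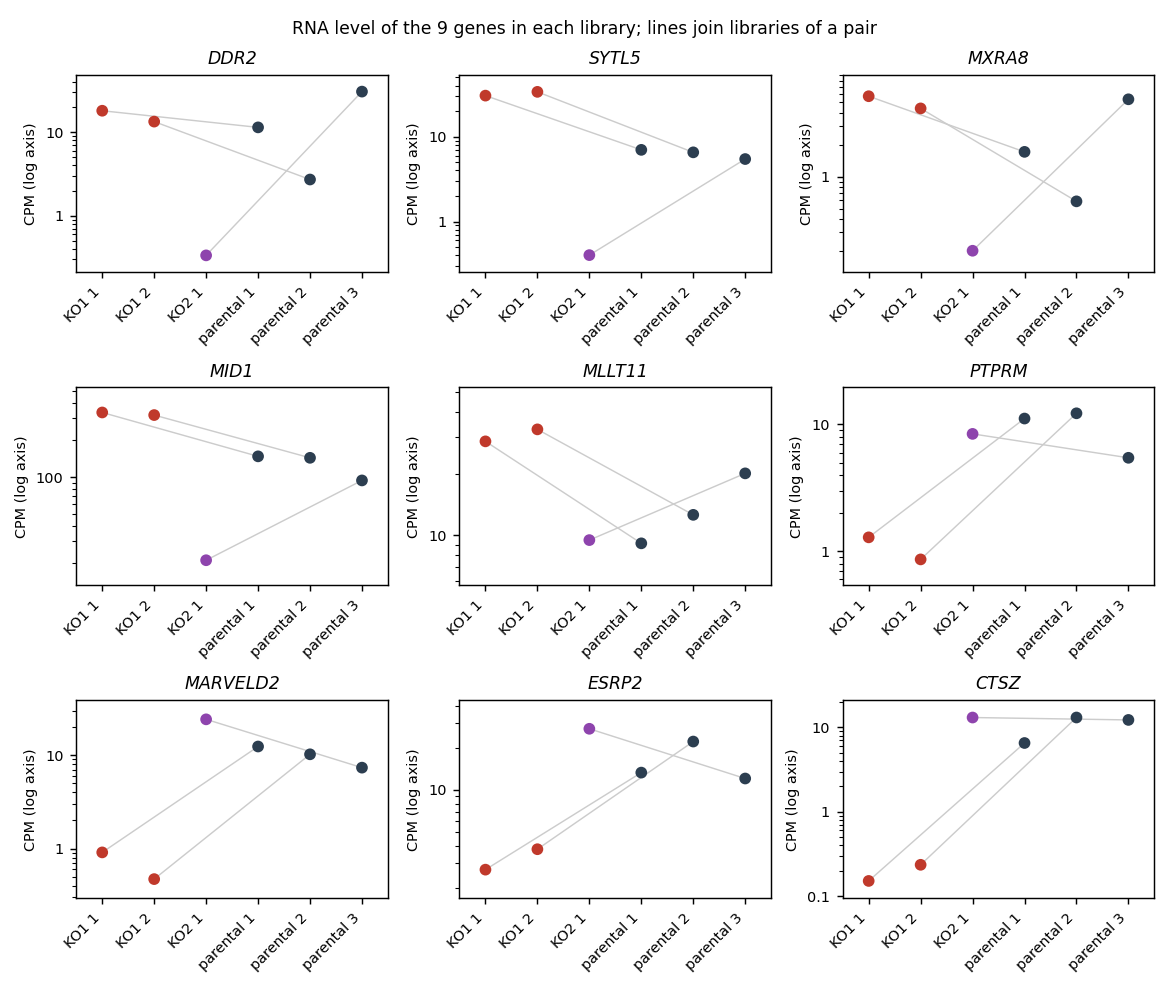
CPM of each of the 9 genes in the 6 RNA libraries, on log axes that differ between panels, with 1 point per library and a grey line joining the libraries of a pair (the undated pair is not stated by the labels). For 4 of the 5 genes higher in KO1, KO2 was the lowest library, and for MARVELD2 and ESRP2 it was the highest.

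Among the cell-surface proteins, the collagen receptor DDR2 (ENSG00000162733, chromosome 1, 162601163 to 162750237, plus strand) stood at 18.0 and 13.3 CPM in KO1 1 and 2, at 0.335 CPM in KO2 and at 11.4, 2.71 and 30.5 CPM in parental 1, 2 and 3. KO2 was the lowest library, and parental 3 lay above both KO1 libraries, so KO1 exceeded its date partners but not every parental library. The parental libraries themselves differed by 11.3 times. The log2 changes of the KO1 pairs were 0.62 and 1.95, with a mean of 1.28 ± 0.94 (SD, n = 2 pairs). Leaving out 1 of the 4 libraries in turn gave 0.41 to 2.15. In KO2 the log2 change was −4.56 against parental 3 and −3.08 against the mean of the 3 parental libraries.

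MXRA8, the alphavirus receptor (ENSG00000162576, chromosome 1, 1288069 to 1297157, minus strand), stood at 5.72 and 4.39 CPM in KO1, at 0.201 CPM (6 reads) in KO2 and at 1.71, 0.587 and 5.35 CPM in parental 1, 2 and 3. Parental 3 lay between the KO1 libraries, and KO2 was the lowest library, as for DDR2. The log2 change averaged 1.54 ± 0.32 in the KO1 pairs (SD, n = 2 pairs) and was −2.40 in the undated pair. Against the mean of the 3 parental libraries the KO2 change of MXRA8 was −1.33. The ratio of CPM in the pair KO1 2 and parental 2 was 7.49, with an exact 95% interval of 4.21 to 14.5, since parental 2 held 13 reads. Such intervals cover counting error only. Across the 6 RNA libraries the log2 levels of DDR2 and MXRA8 had a Pearson correlation of 0.94, a description of libraries that share dates.

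The receptor phosphatase PTPRM (ENSG00000173482, chromosome 18, 7566780 to 8406859, plus strand) stood at 1.29 and 0.863 CPM in KO1, at 8.42 CPM in KO2 and at 11.1, 12.2 and 5.46 CPM in parental 1, 2 and 3. KO1 lay below every other library, while KO2 lay inside the parental range. Its log2 change averaged −2.62 ± 0.30 in the KO1 pairs (SD, n = 2 pairs). In KO2 it was 0.54 against parental 3, a CPM ratio of 1.54 with an exact 95% interval of 1.26 to 1.89, and −0.10 against the mean of the 3 parental libraries. The opposite sign of PTPRM in KO2 rests on parental 3 as its partner.

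MARVELD2, the tricellular junction protein (ENSG00000152939, chromosome 5, 68710939 to 68740157, plus strand), stood at 0.909 and 0.471 CPM in KO1, at 24.2 CPM in KO2 and at 12.4, 10.2 and 7.34 CPM in parental 1, 2 and 3. The 3 groups did not overlap, with KO1 below and KO2 above every parental library. The KO1 levels rest on 24 and 12 reads. Its log2 changes were −2.81 and −2.93 (KO1 pairs) and 1.59 (KO2). KO2 exceeded the KO1 mean of 0.690 ± 0.310 CPM (SD, n = 2) by 35 times.

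Among the proteins inside the cell, the Rab27 effector SYTL5 (ENSG00000147041, chromosome X, 37865835 to 37988072, plus strand) stood at 30.5 and 33.8 CPM in KO1, at 0.403 CPM (12 reads) in KO2 and at 7.00, 6.55 and 5.46 CPM in parental 1, 2 and 3. Its parental libraries lay close together, at 6.33 ± 0.794 CPM (SD, n = 3), with KO1 above and KO2 below all of them. Its log2 changes were 1.98 and 2.20 (KO1 pairs) and −2.20 (KO2). The KO1 mean exceeded KO2 by 79.8 times.

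MID1, the microtubule-bound ubiquitin ligase (ENSG00000101871, chromosome X, 10413350 to 10851773, minus strand), stood at 336 and 320 CPM in KO1, at 21.0 CPM in KO2 and at 147, 143 and 93.9 CPM in parental 1, 2 and 3. It rests on 627 or more reads in every library, and the 3 groups did not overlap. Its change in the KO1 pairs was the most even of the 9, 1.17 ± 0.02 (log2, SD, n = 2 pairs), and −2.11 in KO2. SYTL5 and MID1, both on chromosome X but far apart, had a Pearson correlation of 0.98 over the 6 libraries.

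MLLT11, the KMT2A fusion partner (ENSG00000213190, chromosome 1, 151030234 to 151040970, plus strand), stood at 28.7 and 32.8 CPM in KO1, at 9.49 CPM in KO2 and at 9.15, 12.6 and 20.0 CPM in parental 1, 2 and 3. KO1 lay above every other library, while KO2 lay inside the parental range, just above parental 1. The log2 change averaged 1.43 ± 0.16 in the KO1 pairs (SD, n = 2 pairs) and was −1.0 in the undated pair, or −0.44 against the mean of the 3 parental libraries. The opposite-strand gene CDC42SE1 overlaps MLLT11 in the files' annotation and stood at 84.1 and 72.0 CPM in KO1, 80.6 CPM in KO2 and 76.7, 52.5 and 83.7 CPM in the parental libraries. Whether reads were counted by strand is not given in the sources used here, so reads of overlapping genes cannot be told apart.

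The splicing regulator ESRP2 (ENSG00000103067, chromosome 16, 68263014 to 68272005, minus strand) stood at 2.69 and 3.77 CPM in KO1, at 27.4 CPM in KO2 and at 13.3, 22.2 and 12.1 CPM in parental 1, 2 and 3. KO1 lay below and KO2 above every parental library. Its log2 changes were −1.96 and −2.28 (KO1 pairs) and 1.12 (KO2). ESRP2 overlaps NFATC3 on the opposite strand, which stood at 58.4 and 55.1 CPM in KO1, 73.0 CPM in KO2 and 57.1 to 64.4 CPM in parental libraries. It also overlaps RP11-96D1.11, an annotated antisense RNA on the same strand as ESRP2. That RNA changed in the direction of ESRP2 in each pair, at 0.606 and 0.863 CPM in KO1, 4.16 CPM in KO2 and 4.16, 4.88 and 1.51 CPM in parental 1, 2 and 3. Unlike ESRP2, it lay inside the parental range in KO2.

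CTSZ, the lysosomal carboxypeptidase (ENSG00000101160, chromosome 20, 57570240 to 57582302, minus strand), stood at 0.152 and 0.235 CPM in KO1, at 13.1 CPM in KO2 and at 6.53, 13.1 and 12.3 CPM in parental 1, 2 and 3. The KO1 levels are 4 and 6 reads, near the 0.114 and 0.118 CPM that 3 reads give in those libraries. KO2 lay inside the parental range, and its CPM ratio to parental 3 was 1.07 with an exact 95% interval of 0.923 to 1.24, which includes no change. The CPM ratio to the date partner was 0.0232 (0.00626 to 0.0605) for KO1 1 and 0.0180 (0.00655 to 0.0396) for KO1 2. The log2 change averaged −3.11 ± 0.57 in the KO1 pairs (SD, n = 2 pairs) with the pseudocount of 1 and −5.01 with 0.1. In KO2 the log2 change of CTSZ was 0.09.

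**Figure D2:**
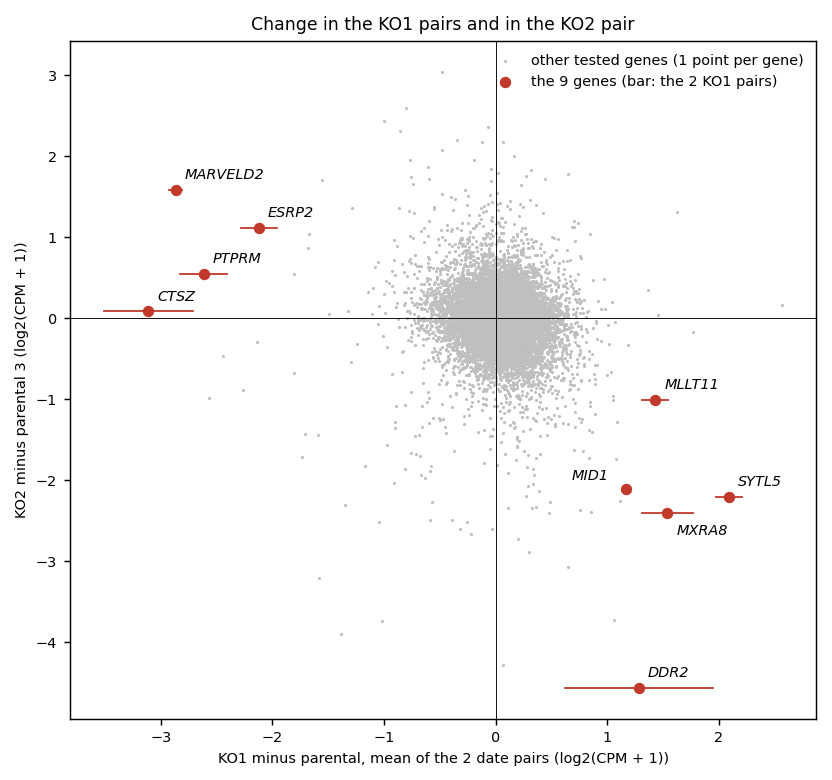
Change of log2(CPM + 1) in the KO1 pairs (x axis, mean of 2 date pairs) against the change in the undated pair (y axis), with 1 grey point per tested gene and the 9 genes in red, whose bars span the 2 KO1 pairs. The 9 genes lie in the upper left and lower right, with CTSZ next to the horizontal axis at 0.09 and DDR2 lowest at −4.56.

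In the authors' deposited table, which compares all 3 UBR7KO with all 3 parental libraries, the log2 fold changes of the 9 genes ran from −1.35 (PTPRM) to 1.69 (SYTL5). The adjusted p in the authors' deposited table was 1.00 for each. Over the same 6 libraries limma called 0 genes higher and 0 lower, with 23 and 47 at an unadjusted p under 0.05, and DESeq2 called 1 and 6.

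The choice of the genes on these 6 libraries fixes the sign of their correlations, which are a description. The 4 genes lower in KO1 had Pearson correlations of 0.91 to 0.96 with each other over the 6 libraries, and the 5 genes higher in KO1 of 0.64 to 0.98. Among the 4773 tested genes that span at least 1 log2 unit, the gene most like CTSZ was UBR7 itself (chromosome 14, Pearson 0.996), followed by RP11-613M10.6 (0.982). UBR7 was low in KO1 alone, as CTSZ was. The genes most like PTPRM were AL133493.2 (0.997) and HAUS6 (0.984), those most like MARVELD2 were BAG1 (0.965) and GSPT2 (0.964), and those most like ESRP2 were MTAP (0.989) and RP11-613M10.6 (0.964). HAUS6, BAG1, MTAP and RP11-613M10.6 all lie on chromosome 9, which holds none of the 9 genes.

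Of the genes higher in KO1, both DDR2 and MXRA8 were most like HSPB8, a small heat shock protein (0.993 and 0.964), with SLCO5A1 (0.989) and DMRTA2 (0.958) next. SYTL5 was most like ARHGEF6 (0.994) and AHNAK (0.991). MID1 was most like CCBE1 (0.995) and NKX2-3 (0.992), and MLLT11 most like VSTM4 (0.978) and ABHD15 (0.958). HSPB8 stood at 4.62 and 4.24 CPM in KO1, 0.302 CPM in KO2 and 2.88, 1.31 and 5.80 CPM in parental 1, 2 and 3. These likenesses were chosen from the 4773 genes over 6 libraries that share dates and carry no test.

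The tested genes that start within 1 Mb give the changes of the surrounding stretch of chromosome. The genes were chosen for large changes, so that they exceed most neighbours follows from the choice, and the neighbours' own values are given as a description. In the KO1 pairs the change of each of the 9 genes exceeded, in its own direction, that of every such neighbour. In the undated pair this held for 7 of 9, and not for MLLT11 and CTSZ. Neighbours of DDR2 (12 genes) had a median log2 change of 0.15 in the KO1 pairs and −0.17 in KO2, with ATF6 highest at 0.57 and UAP1 next at 0.36 in KO1. The 7 neighbours of SYTL5 had medians of 0.18 and −0.41, and the 53 of MXRA8 0.01 and 0.05. MID1 and PTPRM each had 2 such neighbours, MSL3 (−0.22) and HCCS (−0.08) for MID1, and LAMA1 (−0.52) and ARHGAP28 (0.32) for PTPRM in the KO1 pairs.

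MLLT11, like DDR2, lay among genes mostly of its own sign in the KO1 pairs. Of its 45 neighbours 43 were higher there, as were 10 of the 12 of DDR2. For SYTL5 it was 5 of 7, for MXRA8 29 of 53 and for MID1 0 of 2. Around the genes lower in KO1, the neighbours of the same sign were 22 of 41 for ESRP2, 8 of 13 for MARVELD2, 7 of 14 for CTSZ and 1 of 2 for PTPRM. The share of all tested genes higher in the KO1 pairs was not computed. The 45 neighbours of MLLT11 had a median of 0.23, against 0.03 over all tested genes. S100A10 (0.68) and S100A11 (0.53) were the highest of them, against 1.43 for MLLT11. S100A10 and S100A11 changed by −0.59 and −0.89 in KO2. Around ESRP2, 41 neighbours had a median of −0.04 in the KO1 pairs and 0.10 in KO2. The lowest of them in KO1 were the overlapping RP11-96D1.11 (−1.67 in KO1, 1.04 in KO2) and CDH3, a classical cadherin, at −0.80 in KO1. The 13 neighbours of MARVELD2 had medians of −0.17 in the KO1 pairs and 0.14 in KO2, with RAD17 at −0.53 and CCDC125 at −0.42 in KO1. The 14 neighbours of CTSZ had medians of 0.00 and 0.02, with GNAS at 0.51 and NPEPL1 at −0.34 in the KO1 pairs. For the other neighbourhoods the named neighbours were CCNL2 (−0.62) and C1orf233 (0.53) for MXRA8, and TSPAN7 (0.45) and SRPX (0.43) for SYTL5.

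**Figure D3:**
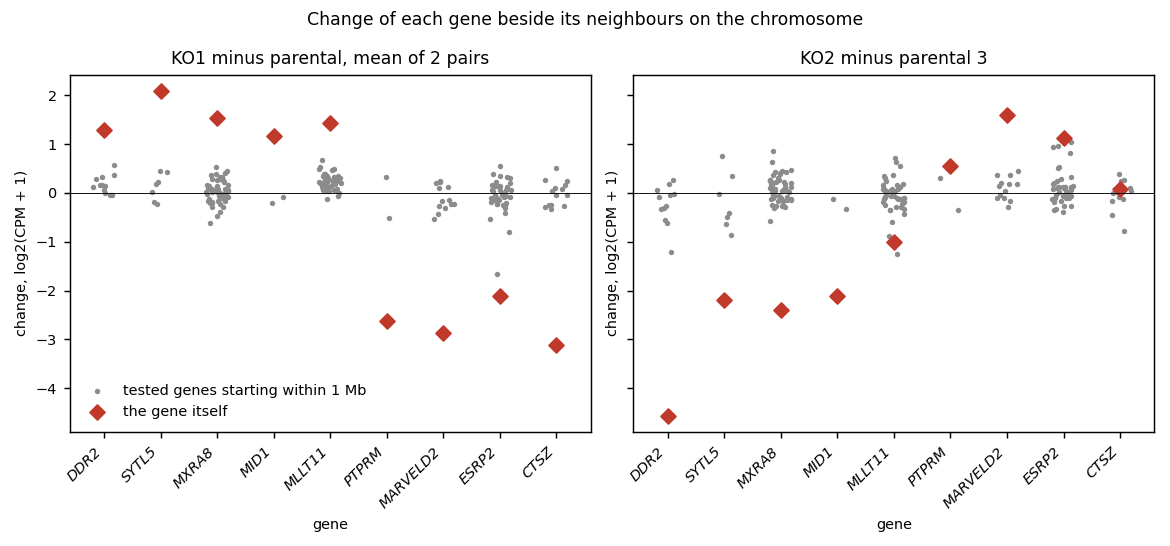
Change of log2(CPM + 1) in the KO1 pairs (left panel) and in the undated pair (right panel) for each of the 9 genes (red diamonds) and for every tested gene that starts within 1 Mb of its start (grey points). In the left panel each diamond lies beyond all its neighbours, and in the right panel the diamonds of MLLT11 and CTSZ lie among theirs.

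Open chromatin was not used to choose the genes. Both UBR7KO ATAC libraries carry the code of KO2 1, whose RNA was used, so the peaks are no independent check. An exact two-sided permutation p cannot fall below 0.3333 with 2 against 2 libraries, so peaks are described. A peak within 1 kb of the start stood at 3 and 4 of the 9 genes in UBR7KO 1 and 2, where 70.5% and 83.3% of tested genes had one, and at 2 and 4 in parental 1 and 2 (55.5% and 80.8%). Peak numbers differed between libraries, at 15310 and 45920 in UBR7KO and 10507 and 38529 in parental cells. Of these peaks, 54.3% and 33.6% in UBR7KO 1 and 2 did not reach a q of 0.05. In parental 1 and 2 the shares were 63.5% and 49.0%. Open means here that a peak stands in the deposited list, whatever its q. A peak in the gene body stood at 5 and 7 of the 9 in UBR7KO 1 and 2 (77.2% and 91.6% of tested genes) and at 5 and 6 in parental 1 and 2 (59.4% and 89.7%). The starts of SYTL5, MXRA8, MLLT11 and CTSZ as the RNA table gives them had a peak in no library, as had 15.2% of tested genes. Of 22 open regions at a start or in a gene body, 7 were found in UBR7KO libraries alone, 8 in parental libraries alone and 7 in both, 4 of these in all 4 libraries.

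MARVELD2 was the gene whose start was open in both UBR7KO and neither parental library, a pattern seen at 106 of the tested genes (0.774%). The region, 387 bases at chromosome 5, 68710759 to 68711145, spans the start, with a peak −log10 q of 1.09 and 2.05 in UBR7KO 1 and 2. It stands in the authors' replicate-intersected UBR7KO set and not in their parental set. MARVELD2 RNA was highest in KO2, whose code the ATAC libraries carry, and lowest in KO1. The 106 genes with such a start had a median log2 change of 0.09 in KO2, against −0.02 over all tested genes. Of the 106, 72 were higher in KO2 (47.2% of all tested genes were) and 12 by at least 2-fold (0.92%). A link between such starts and RNA was not tested. The reverse pattern, a start open in both parental and neither UBR7KO library, was found at 8 genes (0.0584%) and at 0 of the 9. Those 8 genes had a median log2 change of −0.38 in KO2, and 1 of them was higher there. With peaks of −log10 q of at least 5 alone, no library kept a peak at the MARVELD2 start, and absence from a peak list does not show closed chromatin.

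ESRP2 and PTPRM had a peak at the start in all 4 libraries, as had 52.9% of tested genes. At ESRP2 the peak −log10 q was 0.934 and 5.80 in UBR7KO 1 and 2, against 0.650 and 2.21 in parental 1 and 2. At PTPRM it was 1.72 and 3.57 in UBR7KO, against 0.647 and 1.94 in parental cells. In both genes library 2 of a group gave the higher value, and the UBR7KO library exceeded the parental library of the same number. UBR7KO 2, the library with the most peaks, held a further ESRP2 region 1.96 kb inside the gene (−log10 q 7.47) and 3 PTPRM body regions (2.83, 4.28 and 1.98), none of them found in the other 3 libraries. Peak numbers move with these differences, and their part was not tested.

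Among the genes lower in KO2, DDR2 had 2 open regions in UBR7KO and 4 in parental libraries, and MID1 had 3 and 6, while SYTL5 and MLLT11 had 1 in both kinds and MXRA8 had 0. Of the parental regions, 3 of the 4 in DDR2 and 5 of the 6 in MID1 were called in parental 2 alone of the parental libraries, which held 38529 peaks against 10507 in parental 1. DDR2 had a start peak of −log10 q 0.455 in UBR7KO 2 and 3.54 in parental 2, and 2 body regions in parental 2 alone (5.24 and 2.29). A DDR2 region 65.2 kb inside the gene was open in all 4 libraries, at 1.23 and 3.16 in UBR7KO and 4.03 and 3.07 in parental cells. SYTL5 had 1 region, 54.9 kb inside the gene, with 1.56 in UBR7KO 2 and 1.29 in parental 2. MID1 had a start peak in parental 2 alone (1.26), and a region over its RefSeq start, 263 kb inside the gene as the RNA table gives it, in UBR7KO 2 (0.925) and in parental 1 and 2 (0.906 and 0.674). The MLLT11 region over the RefSeq start, 1.82 kb inside the gene, was open in all 4 libraries, with 0.623 and 1.35 in UBR7KO and 1.47 and 0.875 in parental cells. That region also holds the start of the opposite-strand gene CDC42SE1, so it cannot be assigned to MLLT11 alone. CTSZ had no peak in any library, also in parental cells, where its RNA stood at 6.53 to 13.1 CPM.

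**Figure D4:**
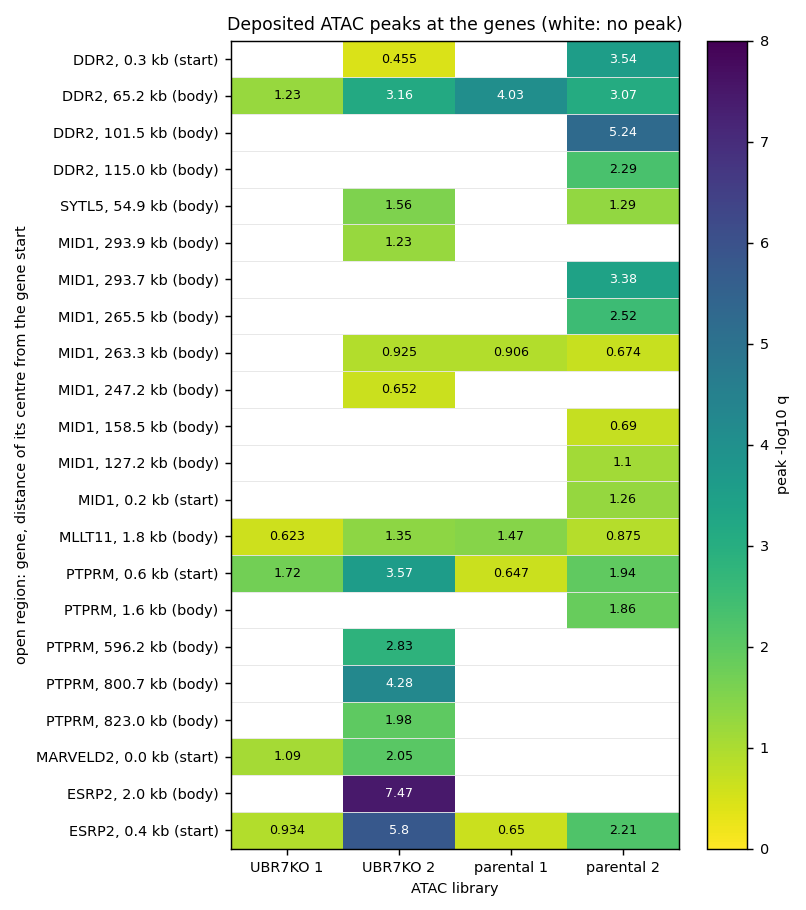
The 22 open regions at the start (within 1 kb) or in the body of 7 of the 9 genes, 1 row per region with the distance of its centre from the gene start, and the −log10 q of the deposited peak in each of 4 ATAC libraries by colour and number (white where no peak was called). The MARVELD2 row is filled in both UBR7KO columns and in no parental column, and MXRA8 and CTSZ have no row.

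Sites of the protein itself came from the GFP-UBR7 ChIP-seq peaks, a single library of 5895 peaks. None of the 9 genes had a peak within 1 kb of the start, where 24.9% of tested genes did, and 1 of 9 had one in the body (27.5% of tested genes). That gene was MLLT11, with a peak at chromosome 1, 151032001 to 151032302, which overlaps the region open in all 4 ATAC libraries at its RefSeq start. Its score of 53.83 ranked 4698 of the 5895 peaks. The opposite-strand gene CDC42SE1 starts 2.015 kb downstream of the MLLT11 start, inside both this peak and this open region. The peak can therefore not be assigned to MLLT11 alone. Another 3 GFP-UBR7 peaks lay beyond the end of MLLT11, 12.7 to 13.4 kb from its start, with scores of 55.92, 90.38 and 108.7, in a region that was also open in all 4 ATAC libraries. GABPB2 starts 12.82 kb downstream of the MLLT11 start, inside the peak that scored 55.92.

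The pathways around the 9 genes were read from lists that leave the 9 out and hold 119 tested genes. The lists were drawn up with earlier results of these data known. Shares above those of all tested genes can follow from that choice, and are a description. Without the date block limma called 0 of them higher and 0 lower in KO1 against its date partners, as it did of all tested genes (116 and 102 at an unadjusted p under 0.05, and DESeq2 called 4 and 20). With date pairs blocked, limma called 14 list genes higher (11.8%) and 5 lower (4.2%), against 2.23% and 1.36% of all tested genes (3.58% either way). In the difference between the lines, KO2 against KO1 pairs, limma called 7 list genes higher in KO2 (5.88%) and 16 lower (13.4%), against 1.71% and 3.32% (5.03% either way). That fit has 1 residual degree of freedom and 1 KO2 library, so line and undated pair cannot be told apart in it. The residual comes from the KO1 date pairs, so no spread of KO2 or parental 3 enters its p-values. Here and below, higher or lower in KO2 by this test compares the change from parental 3 with that in the KO1 pairs, not CPM levels. Under RLE scaling the line test called 353 genes higher and 427 lower, against 234 and 455 on the authors' scaling. Without the block the limma adjusted p of every list gene was 0.925 or higher. The list genes named below, other than the most expressed of each list, were chosen after their values were seen.

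Collagens and collagen receptors are the partners of DDR2. Of 18 tested genes 17 had a positive change in the KO1 pairs, with a median of 0.47, and 5 in KO2, with a median of −0.22. With the block 8 rose in KO1 (ITGB1, COL2A1, COL4A1, COL4A2, COL5A1, COL6A1, COL6A2 and COL6A3) and 0 fell. COL1A1, a fibrillar collagen chain, had changes of −0.44 in the KO1 pairs and −0.79 in KO2. ITGB1, the common beta chain of collagen-binding integrins and the most expressed of the list, was at 259 and 424 CPM in KO1 1 and 2, with 137 and 297 CPM in parental 1 and 2 (log2 change 0.71, SE 0.13, limma adjusted p = 0.00221 with the block and 1.00 without). COL6A3, a collagen VI chain, rose by 1.77 (SE 0.21, limma adjusted p = 1.35e-05 with the block). COL5A2 and COL3A1, fibrillar collagen chains, had changes of 0.30 and 0.36 in KO1 and −2.88 and −2.33 in KO2. Their line differences of −3.17 and −2.69 had limma adjusted p of 1.06e-06 and 2.17e-05. COL5A2 stood at 1.84 CPM in KO2 and 19.9 CPM in parental 3, against 3.57 and 4.47 CPM in parental 1 and 2, so parental 3 stood apart for it as for DDR2. The summed fibroblast markers were lowest in KO2, at 7.95 CPM, of which COL1A1 held 5.97 CPM and COL3A1 0.805 CPM. Both genes also stand in the collagen list, so that sum is no separate measure of a shift in cell type. Such a shift was not tested.

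Of 13 tested mesenchymal genes the median change was 0.03 in the KO1 pairs and −0.35 in KO2, and the line test called CDH2 higher in KO2 and SNAI2, SPARC, TGFBR2, VIM and FN1 lower. SNAI2, a transcription factor of the mesenchymal state, stood at 29.7 and 56.2 CPM in KO1, 3.35 CPM in KO2 and 37.3, 41.0 and 83.3 CPM in parental 1, 2 and 3 (line difference −4.34, SE 0.28, limma adjusted p = 8.23e-09). VIM, the most expressed of the list, stood at 830 and 670 CPM in KO1 and 587 CPM in KO2, against 487, 528 and 821 CPM in parental 1, 2 and 3. VIM and TGFBR2 rose in KO1 with the block (0.56 and 0.77, limma adjusted p = 0.0202 and 0.0132) and SPARC fell by 1.02 (limma adjusted p = 0.00435). By edgeR quasi-likelihood VIM lost its call in KO1 (adjusted p = 0.0674 with the block) and FN1 its call between the lines (adjusted p = 0.0551).

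Epithelial genes, the programme in which ESRP2 and MARVELD2 act, were largely missing from the table, with 8 of 21 tested and ESRP1, the paralogue of ESRP2, not in it. The median was −0.25 in the KO1 pairs and −0.02 in KO2. SPINT2, a surface inhibitor of serine proteases, fell by 0.60 in KO1 (SE 0.14, limma adjusted p = 0.0209 with the block), and its line difference was 2.32 (SE 0.25, limma adjusted p = 1.02e-06). SPINT2 stood at 22.2 and 15.2 CPM in KO1, 37.1 CPM in KO2 and 32.6, 24.6 and 10.6 CPM in parental 1, 2 and 3. KRT8, a simple-epithelium keratin, went the other way between the lines (−1.82, SE 0.32, limma adjusted p = 0.000780), and KRT18, the most expressed of the list, had changes of −0.15 in both. Of 13 tight junction genes limma called 0 in KO1 with the block and edgeR quasi-likelihood with the block called CLDN1 lower (adjusted p = 0.0420). CLDN1 was called higher in KO2 than KO1 (1.51, limma adjusted p = 0.0186). TJP1, the most expressed of these, had changes of −0.23 in the KO1 pairs and 0.16 in KO2. Occludin (OCLN), the relative of MARVELD2, had 0.10 and 0.36.

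Of the genes listed with PTPRM, 9 cadherin, catenin and phosphatase genes were tested, and CDH3 fell by 0.80 in KO1 (SE 0.21, limma adjusted p = 0.0318 with the block). CTNNB1, the most expressed, had changes of 0.27 in the KO1 pairs and −0.11 in KO2. The line test called CDH2 higher in KO2 (0.91, limma adjusted p = 0.00790) and JUP lower (−0.77, limma adjusted p = 0.0385, but 0.0640 by edgeR quasi-likelihood).

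Of 21 tested lysosomal genes, 16 had a positive change in the KO1 pairs, with a median of 0.18 against −3.11 for CTSZ. With the block 3 rose and 0 fell. CTSB and CTSL, which encode lysosomal cathepsins, rose by 0.50 and 0.52 (limma adjusted p = 0.0195 and 0.0259), and by edgeR quasi-likelihood with the block CTSL had an adjusted p of 0.0518. The line test called 3 lysosomal genes lower in KO2 than in KO1, among them CTSB (−0.88) and CTSL (−1.24). IGF2R, the most expressed of the list, had changes of 0.40 in the KO1 pairs and −0.15 in KO2.

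Few relatives of SYTL5, MXRA8, MID1 and MLLT11 were called. Of 7 Rab27 genes 0 were called by limma or edgeR quasi-likelihood with the block or between the lines, and EXPH5, the most expressed, had changes of −0.08 and −0.14. Of 6 genes listed with MXRA8, MXRA7 was called lower in KO2 than KO1 by limma (−0.79, adjusted p = 0.0227) and not by edgeR quasi-likelihood (adjusted p = 0.0515). Of 11 genes listed with MID1, PPP2R1A, the PP2A scaffold subunit and most expressed of the list, rose in KO1 with the block (0.43, limma adjusted p = 0.0476, but 0.0903 by edgeR quasi-likelihood with the block), and TRIM9 was called higher in KO2 than KO1 (1.12, limma adjusted p = 0.0113). Of 15 KMT2A and fusion partner genes, MLLT3 and GAS7 fell in KO1 with the block (−0.96 and −1.68, limma adjusted p = 4.47e-05 and 1.99e-05), opposite in sign to MLLT11. Both were called higher in KO2 than KO1, and MLLT4, the most expressed, had changes of 0.02 and 0.14.

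**Figure D5:**
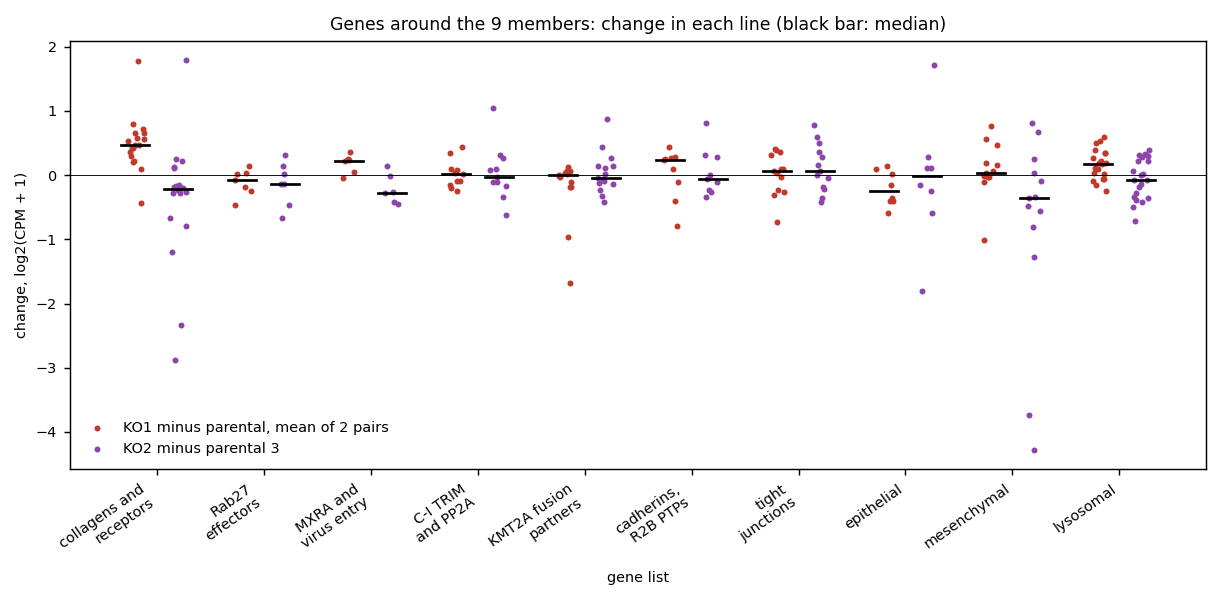
Change of log2(CPM + 1) for each tested gene of 10 pathway lists (1 point per gene, the 9 genes left out), in the KO1 pairs (red, mean of 2 pairs) and in the undated pair (purple), with the list median as a black bar. The collagen list has its KO1 points mostly above 0 (median 0.47), and the lowest purple point, SNAI2 at −4.28, is in the mesenchymal list.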

How the data were processed

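RNA (6 libraries), ATAC (4) and GFP ChIP (1) were used. The 6 CUT&RUN samples were not analysed here. Among tools listed without a role, per the submitters' processing notes, are MACS2, edgeR, HTSeq 0.6.1, Bowtie2 2.3.1 and TopHat2 2.1.0, with the builds hg19 and hg38. Gene coordinates in the files run past the last GRCh38 genes on 14 chromosomes, and are printed as deposited, 1-based, as GRCh37-type positions. RefSeq promoters are GRCh38.p14, and no position was converted.

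RNA values are deposited as CPM, scaled by the authors to the library total alone. All values were whole multiples of 1 step per library within 1e-06 (100% of values), so reads were recovered from them. The authors' log2 fold changes, the score of their likelihood ratio and their p-value columns stand in the same table, per the file headers. The deposited ATAC lists give the −log10 q of broad peaks, which the authors called library by library. The deposited GFP-UBR7 list gives a score per peak, with no stated scale, used to rank peaks only. The authors' width column exceeds the span of ESRP2, so levels were not compared between genes.

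The 9 genes and all gene lists were chosen with earlier results of these data known. The main test was limma on log2(CPM + 1), with a mean trend and robust shrinkage, over 13697 genes, with Benjamini-Hochberg adjusted p under 0.05. The date codes pair the libraries. As a check, the differences between the dates in KO1 and in parental cells had a Pearson correlation of 0.808 across genes, which are not replicates. The counts cover all listed genes, and some single genes are not reported here. Genes were named by a rule (the most expressed of each list where none was called, the 2 neighbours and the 2 genes most alike per gene). Alternatives were another pseudocount, no filter, TMM and RLE scaling, edgeR quasi-likelihood, DESeq2, the date block and each library left out. Tools were Python 3.11.15, numpy 2.4.6, pandas 2.3.3, scipy 1.17.1, matplotlib 3.10.9, R 4.3.3, limma 3.58.1, edgeR 4.0.16 and DESeq2 1.42.0.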

Additional observations from a re-analysis of the deposited data

Results flagged for a closer look

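Each of the 9 genes had one sign of change in both KO1 pairs and the other sign in the undated pair. For CTSZ the change in the undated pair was 0.09, and the exact 95% interval of its CPM ratio, 0.923 to 1.24, includes no change. For PTPRM the KO2 change was −0.10 against the mean of the 3 parental libraries, so its opposite sign rests on parental 3. The difference, KO2 change minus KO1 change on the log2(CPM + 1) scale, was −5.84 for DDR2, −4.29 for SYTL5, −3.94 for MXRA8, −3.27 for MID1 and −2.43 for MLLT11. It was 3.16 for PTPRM, 4.46 for MARVELD2, 3.24 for ESRP2 and 3.20 for CTSZ. The genes were chosen for this difference, so it is a description and no test of it is given.

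For list genes outside the 9, limma called the change in the undated pair different from that in the KO1 pairs. Line and undated pair cannot be told apart in this fit. Lower and higher refer here to that change and not to CPM levels. Those lower in KO2 than in KO1 included SNAI2 (−4.34), COL5A2 (−3.17), SPARC (−2.72), COL3A1 (−2.69), TGFBR2 (−2.04), COL6A3 (−1.94), KRT8 (−1.82), MMP2 (−1.77), CTSL (−1.24), VIM (−1.04), ITGB1 (−0.91), CTSB (−0.88), MXRA7 (−0.79), JUP (−0.77) and FN1 (−0.74). Those higher were GAS7 (2.55), SPINT2 (2.32), CLDN1 (1.51), MLLT3 (1.40), COL2A1 (1.14), TRIM9 (1.12) and CDH2 (0.91). COL2A1 stood at 66.6 CPM in KO2, between the 84.8 and 58.3 CPM of KO1 1 and 2. Its parental levels were 46.3, 42.6 and 18.6 CPM in parental 1, 2 and 3. The fit has 1 KO2 library and 1 residual degree of freedom, which comes from the KO1 date pairs. No spread of KO2 or of parental 3 enters it.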

How the results depend on the processing

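Without a block limma called 0 genes higher and 0 lower in KO1 against its date partners. With the replicate block (date pair) it called 305 and 186, edgeR quasi-likelihood with the replicate block 238 and 244, and DESeq2 without it 4 and 20. With 1 library left out in turn, 0 to 8 were called higher and 1 to 18 lower, and a lone library was then assumed to vary like the others. Over all 6 libraries DESeq2 called 1 higher and 6 lower, and limma 0 and 0 with and without the replicate block. The line test called 353 higher under RLE scaling and 98 higher and 124 lower by DESeq2, against 234 and 455. It could not be run with a library left out, since no residual degree of freedom remained. Of the list genes, the replicate block gave 14 higher and 5 lower in KO1, quasi-likelihood with it 11 and 6, DESeq2 1 lower, and leaving out a library 0 to 1 higher. DESeq2 called 8 list genes lower in the line test. The KO2 change of PTPRM was −0.10 with the mean of the 3 parental libraries as partner. Of the other 116 recomputed changes of single genes, 88 moved by less than the spread and 28 by more, without a change of sign. The spread was the SD of the KO1 pairs, or for KO2 a range taken from the exact counting interval of the CPM ratio. The 88 include every change recomputed with a date pair left out, which cannot move by more than that SD. Those recomputed changes are no check, so the 88 overstate how stable the changes were. With peaks of −log10 q of at least 5, 0 and 1 of the 9 starts had a peak in UBR7KO 1 and 2 and 0 and 0 in parental 1 and 2, and 0 in parental libraries alone. With 1 ATAC library left out, 1 to 2 starts had a peak in UBR7KO libraries alone and 0 to 2 in parental libraries alone. Within 2500 bases and within 5 kb of the start, 1 gene had a GFP-UBR7 peak. The cause of these differences was not tested. Levels under about 1 CPM rest on few reads, and the ATAC and ChIP lists give no depth.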
